A study of Mus musculus with 12 samples.

Results

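The regions described here are stretches of the mouse genome where RelA and Ikaros were both found after 3 h of lipopolysaccharide (LPS) and where Ikaros had not been found in resting cells. They were selected from the 4972 RelA hotspots of wild-type macrophages at 3 h that overlapped no hotspot of input DNA, a hotspot being a region enriched for sequence tags. A region entered the set if it shared at least 1 bp with an Ikaros hotspot at 3 h and none with an Ikaros hotspot of unstimulated cells. This held for 2414 of the 4972 hotspots, or 48.6%, which are called co-gained regions below. The RelA 3 h, Ikaros 3 h, Ikaros 0 h and input lists thus made the selection, and values from them are given as a description. The RelA lists of 8 h, the RelA lists of littermate cells and the Ikaros list of 8 h had no part in it.

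RelA is the transactivating subunit of the common form of NF-kB, the transcription factor through which macrophages switch on much of their inflammatory program. In resting cells it is held in the cytoplasm by IkB proteins. LPS, sensed through Toll-like receptor 4, leads to destruction of IkB and entry of RelA into the nucleus, and newly made IkB later takes RelA off DNA again. Ikaros, the product of Ikzf1, is a zinc finger DNA-binding protein best known for its part in lymphocyte development, where it can repress or support transcription together with chromatin remodelling complexes. Its core recognition sequence resembles a portion of the kB site that RelA binds.

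The cells were bone-marrow-derived macrophages of the C57BL/6J strain, which are primary cells grown from marrow. Wild-type cells were profiled for RelA and for Ikaros at 0, 3 and 8 h of LPS, and cells of the genotype given as Littermate control were profiled for RelA at the same times. The sources used here do not name the alleles of those littermates or the number of animals per library. Untreated wild-type cells supplied the input DNA, and the inputs of littermate and Ikzf KO cells were not analysed here. RelA was precipitated with a rabbit polyclonal antibody and Ikaros with a goat polyclonal antibody, from separately sonicated chromatin.

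Each group had 1 library, so there was no spread between replicates and no p-value between conditions. How many reads stand behind each list is not known. Intervals in parentheses are 95% Clopper-Pearson intervals for a share and 95% Newcombe intervals for a difference of shares. A mean of differences over groups of like strength carries an interval combined from the Newcombe intervals of the groups. All cover counting error over hotspots only. File names gave another time than the labels, or a second time beside it, for 6 samples, and the labels were used. The Ikaros 0 h list, which decides what counts as gained, and the wild-type RelA 0 h list are among them, since the names of both give only 3 h. After removal of input hotspots the wild-type RelA lists held 47, 4972 and 1878 hotspots at 0, 3 and 8 h, the Ikaros lists 853, 7109 and 13796, and the littermate RelA lists 5805, 9999 and 5231. The lists were not equally deep: the lowest z score, the authors' measure of enrichment, was 8.88 in wild-type RelA at 3 h and 10.9 at 8 h. A region missing from a list may therefore be weak rather than unbound. Littermate lists held many hotspots of low tag density, with a median highest density between 4.11 and 4.56 against 18.5 to 25.5 in the wild-type lists of either factor. No gene could be assigned to a region, because no annotation of the mm9 build was used, and regions are named by their mm9 coordinates as deposited.

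Co-gained regions were stronger and broader RelA hotspots than those without Ikaros. Their median RelA z score at 3 h was 14.7, their median highest tag density 20.8 and their median width 609 bp. The 1358 RelA hotspots with no Ikaros at any time had medians of 11.0, 15.8 and 444 bp. The 274 RelA hotspots that lay on Ikaros of resting cells had medians of 16.2, 22.5 and 643.5 bp, and the 926 that met Ikaros first at 8 h had 12.2, 18.1 and 516.5 bp. With the 4972 hotspots cut into 5 equal groups by RelA z score (quintiles), co-gained regions made up 33.5% (30.6 to 36.5) of the weakest quintile and 68.0% (65.0 to 70.9) of the strongest. RelA z score and width moved closely together over the co-gained regions (Spearman rho 0.90, 2414 regions of 1 library), so strength and breadth cannot be told apart in these lists.

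The selection required the hotspots of the 2 factors to overlap, which by itself keeps their centres close. The distances are therefore a description, and no reference distance was computed. The centre of the RelA hotspot and that of the Ikaros hotspot lay a median of 67 bp apart (quartiles 30.5 and 127.5 bp), and 1603 of the 2414 pairs, 66.4%, lay within 100 bp. Only 43 pairs were over 1 kb apart. A median of 84.6% of the RelA hotspot was covered by Ikaros, and 639 regions lay wholly inside the Ikaros hotspot. Most regions, 2384, met a single Ikaros hotspot. In the other direction 48 Ikaros hotspots carried 2 or more RelA regions, up to 8 on 1 hotspot, so 118 regions shared their Ikaros partner with another.

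RelA and Ikaros strength were only weakly related across the co-gained regions. The Ikaros z score had a median of 15.3, and its rank correlation with the RelA z score was 0.19 over the 2414 regions, each value coming from 1 wild-type library at the same place. For the highest tag densities it was 0.33. The plot of RelA against Ikaros strength shows this as a broad cloud, with high Ikaros z scores found at weak and at strong RelA regions.

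**Figure D1:**
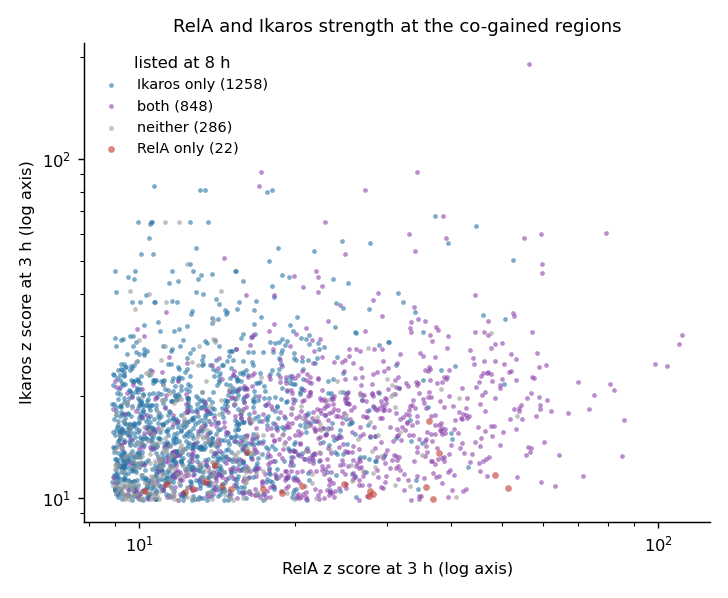
Each point is 1 of the 2414 co-gained regions, with the wild-type RelA z score at 3 h on the horizontal axis and the Ikaros z score at 3 h on the vertical axis, both logarithmic. Colours show which of the wild-type 8 h lists held the region: both (848), Ikaros only (1258), RelA only (22) or neither (286). Regions kept by RelA lie to the right, and the 22 with RelA only lie along the lower edge.

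The strongest co-gained regions kept RelA and Ikaros through 8 h in wild-type cells. All of the 10 regions with the highest RelA z score were listed for RelA and for Ikaros at 8 h and for littermate RelA at 3 h, and 9 of them for littermate RelA at 8 h. First was chr17:13202574-13203628, with highest RelA tag densities of 37.6, 164 and 132 in wild-type cells at 0, 3 and 8 h. In littermate cells it was 26.0, 132 and 166 at the same times, and Ikaros stood at 55.0 at 3 h and 99.1 at 8 h. This region was listed for RelA before LPS in both series, and only Ikaros was absent from its 0 h list there. Second was chr10:18734572-18735829, with RelA densities of 31.9, 171 and 142 in wild-type cells. There the littermate 0 h list held nothing, the littermate densities at 3 and 8 h were 88.9 and 44.9, and Ikaros stood at 54.6 and 68.9.

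Other strong regions differed in how the listed RelA densities of 3 and 8 h compared. At chr19:6945023-6946053 RelA was not listed at 0 h in either series and stood at 117 and 132 in wild-type cells at 3 and 8 h. Littermate RelA stood at 90.3 and 83.2 there, and Ikaros at 34.3 and 36.7. Its densities at 3 and 8 h were thus much alike in each series. In contrast, chr19:22022084-22023086 went from 133 at 3 h to 24.1 at 8 h in wild-type cells. Littermate RelA was 18.0 there at 3 h and unlisted at 8 h, while Ikaros went from 45.2 to 16.8. Another course was seen at chr17:26671788-26672874, where wild-type RelA went from 108 to 21.2, littermate RelA from 42.8 to 42.9 and Ikaros from 84.0 to 76.8. The scale of the densities is not stated, so these values carry no test of change between libraries.

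The remaining 5 of these 10 regions were listed for RelA at 3 and 8 h in both series, and 3 of them also before LPS in wild-type cells. At chr7:25905111-25906102 wild-type RelA was 21.4, 88.6 and 53.2 at 0, 3 and 8 h, littermate RelA was 42.4, 38.5 and 24.3, and Ikaros was 21.0 and 26.1 at 3 and 8 h. At chr3:131360829-131361842 the RelA values were 26.0, 87.3 and 75.8 in wild-type cells and 60.0, 85.4 and 60.8 in littermate cells, with Ikaros at 22.0 and 45.3. Both had RelA at rest in each series. At chr10:74789177-74790105 wild-type RelA was 27.0, 94.7 and 98.5, littermate RelA was 49.5 and 52.4 at 3 and 8 h, and Ikaros was 17.8 and 29.3. The other two were unlisted at 0 h: chr5:44272856-44274091 had wild-type RelA at 84.9 and 78.8, littermate RelA at 66.2 and 65.4 and Ikaros at 30.3 and 44.9. At chr9:88847569-88848558 wild-type RelA was 59.5 and 52.4, littermate RelA was 92.9 and 76.2, and Ikaros was 20.0 and 27.6. Ikaros density was higher at 8 h than at 3 h at each of these 5.

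The regions with the strongest Ikaros signal lay in few places. The Ikaros z score was highest, at 189.9, at chr5:92774129-92778540, a RelA hotspot of 4411 bp. Ikaros density there was 329.9 at 3 h and 139 at 8 h, and RelA density was 67.7 and 31.3 in wild-type cells and 43.0 and 22.0 in littermate cells. The next 4 regions lay close together on chromosome 11 and belonged to 2 Ikaros hotspots. Of these, chr11:83475677-83477729 and chr11:83478037-83479707 shared an Ikaros hotspot of density 166 at 3 h and 125 at 8 h. Likewise chr11:83460148-83461262 and chr11:83461500-83461967 shared one of 176.5 and 109.4. RelA was modest at the last of these, with a density of 19.0 at 3 h and no entry in any other RelA list.

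By 8 h Ikaros was still present at most co-gained regions and RelA at a minority. Ikaros was listed at 2106 of the 2414 regions, 87.2% (85.8 to 88.5), against 66.5% of all 4972 RelA 3 h hotspots. RelA was listed in wild-type cells at 870, 36.0% (34.1 to 38.0), against 31.3% of all. The Ikaros list grew from 7109 to 13796 hotspots between 3 and 8 h while the RelA list shrank. When the Ikaros 8 h list was held to its 7109 strongest hotspots, the length of the 3 h list, Ikaros was at 71.3% of the co-gained regions. The share of all RelA 3 h hotspots was not computed at that length, so 71.3% cannot be set against 66.5%.

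Joint occupancy at 8 h was found at 848 co-gained regions, 35.1% (33.2 to 37.1), against 26.4% of all RelA 3 h hotspots. Ikaros alone was listed at 1258 regions, 52.1% (50.1 to 54.1), and neither factor at 286, 11.8% (10.6 to 13.2). RelA alone was rare, at 22 regions, 0.911% (0.572 to 1.38), in a set chosen for Ikaros at 3 h. Of all 4972 RelA 3 h hotspots, 1556 had RelA at 8 h in wild-type cells, 3304 had Ikaros and 1315 had both. Shares with Ikaros alone, RelA alone or neither were not computed over all hotspots, so none of these is shown to be particular to co-gained regions. The balance followed RelA strength: both factors remained at 6.61% (4.19 to 9.83) of the weakest quintile and at 75.0% (71.6 to 78.3) of the strongest, and Ikaros alone went from 77.5% to 17.3%. The weakest quintile ended at a z score of 9.97, under the lowest value listed for RelA at 8 h, which limits what it could show.

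**Figure D2:**
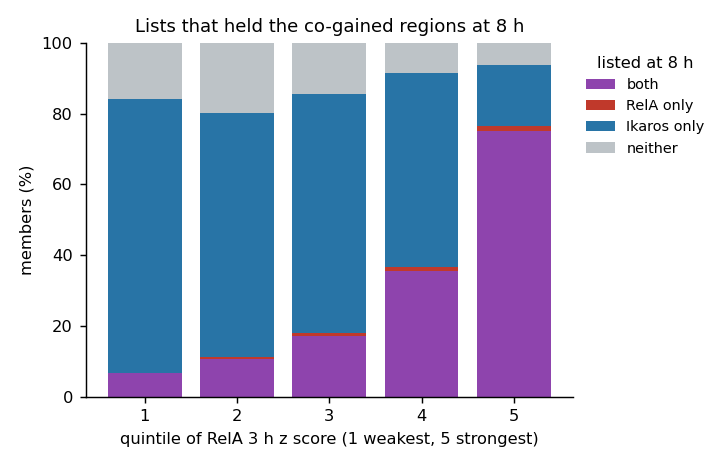
Stacked bars give the percentage of co-gained regions in each quintile of wild-type RelA 3 h z score (1 weakest, 5 strongest) that were listed at 8 h for both factors, RelA only, Ikaros only or neither. Both factors rise from 6.61% to 75.0% and RelA only stays at or below 1.48%.

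Regions that kept RelA almost always kept Ikaros. Ikaros was listed at 8 h at 97.5% (96.2 to 98.4) of the 870 regions with RelA at 8 h and at 81.5% (79.4 to 83.4) of the 1544 without it, a difference of 16.0 percentage points (13.7 to 18.2). The difference was present in every RelA quintile, between 10.4 and 24.5 points. It was widest in the strongest quintile, with 98.1% (96.5 to 99.1) of 518 regions against 73.6% (66.0 to 80.3) of 159. Over all 4972 RelA 3 h hotspots, Ikaros was at 1315 of the 1556 with RelA at 8 h. The difference itself was not computed over all hotspots, so it is not shown to be particular to co-gained regions. The 22 regions with RelA alone had weak Ikaros at 3 h, their median z being 10.7 where that of regions with both factors was 16.1, and 9.82 the lowest value listed.

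Single regions are shown for the outcomes in which a factor was lost. For those without RelA at 8 h they were taken, by rank of RelA z score, from regions that littermate RelA also met at 3 h, so their presence in both series at 3 h comes from the choice. RelA was lost from the lists of both series at 8 h with Ikaros kept at chr3:107578449-107579446, where RelA density at 3 h was 65.5 in wild-type and 22.7 in littermate cells and Ikaros went from 62.9 to 38.9. A like course was seen at chr4:104941023-104941924, with RelA at 50.4 and 21.1 at 3 h and Ikaros at 72.1 and 36.7. Next, chr3:7612260-7613121, had RelA at 44.3 and 13.8 and Ikaros at 18.8 and 18.5. These were strong RelA regions at 3 h, with z scores of 45.9, 44.5 and 40.0, above the median of 28.2 in the strongest quintile of all RelA hotspots. Stronger regions of this outcome without littermate RelA at 3 h were not named, such as chr12:8393101-8394178 with a z score of 52.5, which was looked up after the values were seen. The others of this choice were chr10:17237965-17238957, with RelA at 54.0 and 19.6 and Ikaros at 35.3 and 33.6, and chr11:83336778-83341760, with RelA at 55.7 and 15.1 and Ikaros at 110.2 and 63.8.

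Both factors were gone from the 8 h lists at chr12:120345864-120346821, which had the highest RelA z score of this outcome, 53.5, and was in the littermate list at 3 h. Its RelA density at 3 h was 77.7 in wild-type and 53.1 in littermate cells, and its Ikaros density was 38.5. At chr5:93522764-93523587 the same 3 values were 48.2, 12.2 and 14.4. At chr16:84702935-84703850 they were 49.0, 17.4 and 22.3. Most regions listed in none of the 3 libraries of 8 h were not in the littermate list at 3 h either: 251 were absent from it and 33 were in it. The last of the chosen regions were chr12:35512867-35513691, with 40.1, 26.1 and 19.1, and chr5:30190686-30191553, with 48.0, 19.4 and 41.8.

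The opposite course, RelA kept and Ikaros not, was strongest at chr11:115492023-115492879. Wild-type RelA was 63.0 at 3 h and 52.6 at 8 h, littermate RelA was 26.6, 34.9 and 30.7 at 0, 3 and 8 h, and Ikaros was 20.7 at 3 h with a z score of 10.7. The next were chr11:109271538-109272384, with wild-type RelA at 68.6 and 19.5, and chr5:105539137-105540170, at 31.3 and 16.1. Neither was listed in littermate cells at 8 h. These 3 are drawn from only 22 such regions.

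**Figure D3:**
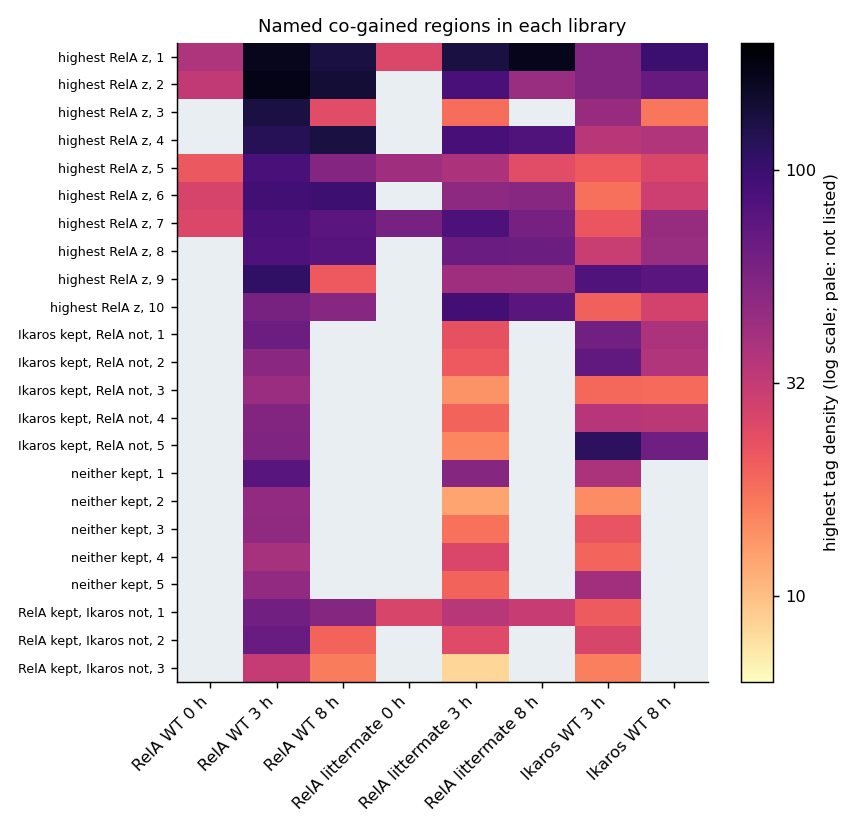
Rows are 23 of the regions chosen by rank, and columns are the 8 libraries followed. Colour gives the highest tag density on a logarithmic scale, and pale cells mark a region that is not in that list. The upper 10 rows, the highest RelA z scores, are filled at 8 h in wild-type cells for both factors, whereas the lower blocks lack RelA, both factors or Ikaros at 8 h, and the first 2 of these hold littermate RelA at 3 h, by selection.

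RelA was listed at few of these regions before LPS. The wild-type 0 h list met 19 of the 2414, 0.787% (0.475 to 1.23), against 0.744% of all RelA 3 h hotspots, and all 19 were in the strongest quintile. The littermate 0 h list met 100, 4.14% (3.38 to 5.02), against 3.58%. Of the 19, 16 were also in the littermate list. The littermate hotspots that met co-gained regions at 0 h were dense, with a median highest density of 27.0 against 4.56 for that whole list. For Ikaros, absence at 0 h was required by the selection at every region. The Ikaros 0 h list was short, with 853 hotspots free of input against 7109 at 3 h. Absence from it may thus mean weak rather than no binding, and does not show a gain. For RelA the name co-gained is a label only. With 47 entries, RelA at 0 h in wild-type cells could meet few of the 2414 regions, so absence there does not show a gain. The littermate series had 5805 entries at 0 h, but a region missing from them may also be weak rather than unbound.

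Littermate RelA at 3 h was found at 1020 of the co-gained regions, 42.3% (40.3 to 44.3), against 34.4% of all RelA 3 h hotspots. At 8 h it was found at 492, 20.4% (18.8 to 22.0), against 17.1%. Littermate presence at 3 h followed wild-type strength, from 10.5% (7.43 to 14.3) of the weakest quintile to 81.4% (78.2 to 84.3) of the strongest. The littermate hotspots at these regions had a median highest density of 19.4 at 3 h, far above the median of 4.11 over their own list. Over the 1020 shared regions the highest densities of the 2 series had a rank correlation of 0.63, given as a description of 2 libraries.

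Within the littermate series too, fewer of the regions were listed at 8 h than at 3 h. The lowest z score of its lists was 8.64 at 3 h and 10.5 at 8 h, so a region missing at 8 h may be weak rather than unbound. Of the 1020 regions the littermate series listed at 3 h, 471 were listed at 8 h, 46.2% (43.1 to 49.3). Over all RelA 3 h hotspots the littermate lists met 1712 at 3 h and 851 at 8 h. The shares and joint counts of this paragraph were not computed over all hotspots, so none is shown to be particular to co-gained regions. The regions kept at 8 h were largely shared: 459 of the 492 kept in littermate cells, 93.3%, were kept in wild-type cells, and these were 52.8% of the 870 kept there. Counting both series, 445 regions had RelA at 3 h and 8 h in each, and 98.7% (97.1 to 99.5) of them had Ikaros at 8 h. A further 282 had RelA at 3 h in each and at 8 h in neither, and Ikaros was at 88.3% (84.0 to 91.8) of these. The 445 were stronger RelA regions, with a median z of 29.4 against 15.4, and had nearly the same Ikaros strength, with medians of 16.8 and 16.0. In all, 439 regions were in each of the 4 lists followed after the selection (wild-type RelA 8 h, littermate RelA 3 and 8 h, Ikaros 8 h), and 251 were in none.

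Compared with RelA regions of like strength, co-gained regions differed widely in Ikaros at 8 h and only slightly in RelA at 8 h. They were selected for Ikaros at 3 h, so the first of these is a follow-up of the factor that chose them. The comparison used the 2284 RelA 3 h hotspots with no Ikaros at 0 or 3 h, averaging the difference over the 5 RelA quintiles. Ikaros at 8 h was 42.3 points (39.7 to 44.8) more frequent at the co-gained regions, which were higher in each quintile. For RelA at 8 h the difference, co-gained less other, was -3.06 points (-5.34 to -0.656), although the plain shares were 36.0% and 24.9%. For littermate RelA it was 3.09 points (0.708 to 5.58) at 3 h and -2.46 points (-4.52 to -0.375) at 8 h. These 3 RelA differences are small beside the change across quintiles, and none had the same sign in all 5.

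The choice of comparison regions decided the direction for RelA at 8 h in both series, and for littermate RelA at 3 h. Against the 1358 hotspots with no Ikaros at 0, 3 or 8 h the mean difference was 3.86 points (0.888 to 6.96) for wild-type RelA at 8 h and 4.47 points (1.69 to 6.91) for littermate RelA at 8 h. For littermate RelA at 3 h it kept its sign against these hotspots, at 9.44 points (6.30 to 12.6), and the co-gained regions were higher in all 5 quintiles. That class was defined in part by the Ikaros list of 8 h, which moves with RelA at 8 h. Its complement, the 926 hotspots that met Ikaros first at 8 h, had RelA at 8 h more often than the co-gained regions, which differed from them by -11.0 points (-14.1 to -7.91). Littermate RelA at 3 h also turned in sign against these 926, at -3.67 points (-6.81 to -0.533), with the co-gained regions higher in none of the 5 quintiles. The difference of 3.86 points had an interval that included 0 when the Ikaros 8 h list was held to its 7109 strongest hotspots (0.340, -2.17 to 2.96), when all lists were held to z scores of at least 10.9 (1.69, -2.03 to 5.65) and when strata of width replaced those of z score (2.58, -0.519 to 5.89).

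RelA regions on resting Ikaros differed from the co-gained ones in RelA before LPS and in Ikaros at 8 h. Littermate RelA at 0 h was at 13.5% (9.69 to 18.1) of the 274 regions on resting Ikaros and at 4.14% of the co-gained ones, and the matched difference was -6.22 points (-11.1 to -3.86). For wild-type RelA at 0 h it was -2.82 points (-6.95 to -1.52). Ikaros at 8 h was listed at 99.3% (97.4 to 99.9) of the resting Ikaros regions, and the matched difference was -12.5 points (-14.2 to -8.07). For RelA at 8 h the matched difference was -4.21 points (-10.5 to 0.374), an interval that included 0.

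**Figure D4:**
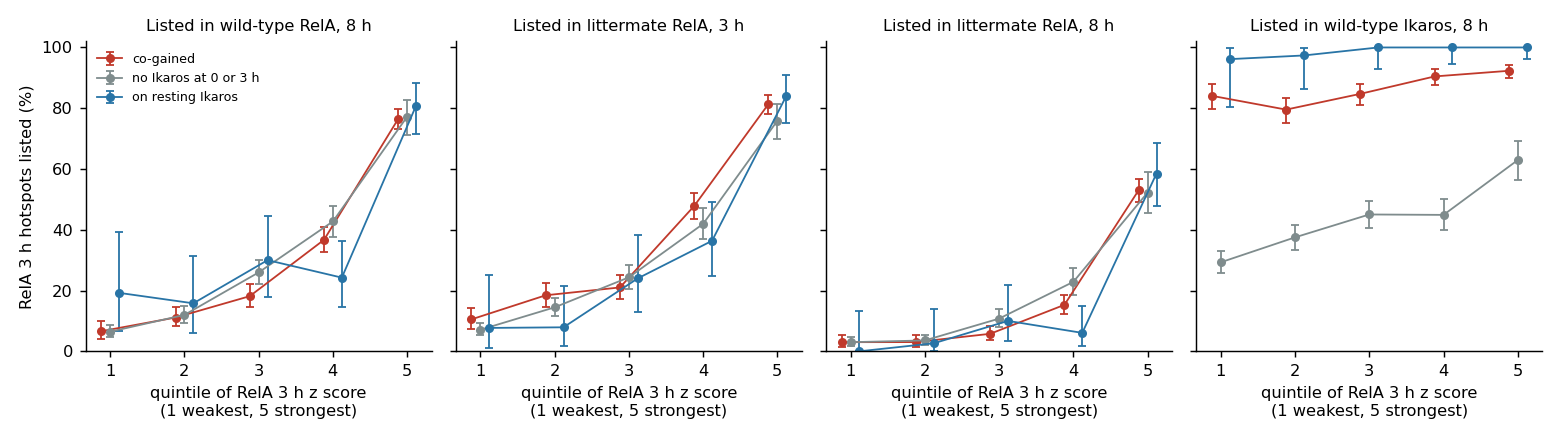
Each panel gives the percentage of wild-type RelA 3 h hotspots listed in 1 other library, by quintile of RelA 3 h z score, for co-gained regions (red), hotspots with no Ikaros at 0 or 3 h (grey) and hotspots on resting Ikaros (blue). Bars are 95% Clopper-Pearson intervals. The classes follow much the same rise in the 3 RelA panels, while in the Ikaros panel the co-gained regions run from 79.5% to 92.3% and the grey class from 29.3% to 62.9%.

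At like RelA strength, the regions of strongest Ikaros at 3 h had more Ikaros and less wild-type RelA at 8 h than the weakest. Co-gained regions were cut into 5 groups by Ikaros z score, and the strongest (483 regions, z of at least 21.5) and weakest (482 regions, z up to 11.7) groups were compared within each RelA quintile. Ikaros at 8 h was 16.2 points (11.2 to 20.9) more frequent in the strongest group. For RelA at 8 h the difference was -10.2 points (-14.7 to -5.02), and the share was lower in all 5 RelA quintiles. The gap was widest in the middle RelA quintile, with 8.22% of 73 regions against 30.9% of 94. Without matching the shares were 37.5% (33.1 to 42.0) and 34.4% (30.2 to 38.9), in regions whose median RelA z score was 17.2 and 13.3. The groups between did not form a steady course: the second strongest Ikaros group had the highest RelA share of the 5, 43.5% (39.0 to 48.0). It lay above the weakest Ikaros group in the weakest RelA quintile (14.3% against 8.14%) and in the strongest (83.2% against 80.7%).

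For littermate RelA both intervals included 0. The difference was -2.77 points (-6.66 to 1.37) at 8 h and -1.62 points (-6.56 to 3.79) at 3 h, and whether the series differ in this was not tested. Littermate RelA quintiles differed in sign, from -9.27 points in the middle one to 2.35 in the second at 8 h, and from -14.6 to 11.4 in the same ones at 3 h. When overlaps had to cover 50% of both hotspots, the wild-type difference was -5.68 points with an interval that included 0 (-11.2 to 3.61). Strata of RelA width in place of z score gave -10.8 points (-15.5 to -5.32), and the part of Ikaros hotspot width was not tested.

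Seen from the Ikaros side, Ikaros hotspots gained at 3 h remained at 8 h more often where RelA was present at 3 h. Of the 7109 Ikaros 3 h hotspots, 6359 were absent from the 0 h list, and 80.3% of these were listed at 8 h. The share was 87.5% (86.1 to 88.8) for the 2368 that overlapped RelA and 76.0% (74.7 to 77.3) for the 3991 that did not. Over quintiles of Ikaros z score the mean difference was 6.39 points (4.34 to 8.31). It lay in the weaker hotspots, at 13.2 points (6.86 to 18.9) in the weakest quintile, 10.2 (4.94 to 15.0) and 7.48 (2.97 to 11.7) in the next ones, 2.08 (-1.32 to 5.37) in the fourth and -0.975 (-3.42 to 1.67) in the strongest, where 94.2% and 95.2% remained. At matched z score the hotspots with RelA were slightly broader, with medians of 293 and 279 bp in the weakest quintile and 761.5 and 686 bp in the strongest.

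The distance between the centres of the 2 factors went with small differences at 8 h. RelA at 8 h was listed at 38.4% of the 1603 regions with centres within 100 bp and at 31.4% of the other 811, a difference of 6.92 points (2.89 to 10.8). The close pairs were stronger, with a median RelA z of 15.4 against 13.2. Within RelA quintiles the difference ran from -4.10 to 6.78 points, and its interval excluded 0 only in the weakest (1.41 to 12.4). For Ikaros at 8 h every quintile's interval included 0.

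Co-gained regions occurred on all chromosomes but Y, where the list had a single RelA hotspot. Their share of the RelA 3 h hotspots of a chromosome ran from 33.6% (24.9 to 43.3) on X, with 37 of 110, to 56.0% (49.0 to 62.9) on chromosome 16, with 116 of 207. The lowest autosome was chromosome 13, with 43.4% (36.6 to 50.4). Of the co-gained regions, 702, or 29.1%, lay within 10 kb of another, in 283 groups, of which 27 held 4 or more. The same share was not computed over all RelA 3 h hotspots, so grouping is not shown to be particular to co-gained regions. Grouped and lone regions had like RelA z scores, 15.2 and 14.5 in the median, and RelA at 8 h was at 39.2% and 34.8% of them, with every quintile's interval of the difference including 0.

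The 5 largest groups differed in how much RelA they held at 8 h. At chr12:27125626-27141555, 11 co-gained regions lay on 2 Ikaros hotspots, the stronger with a z score of 65.3. Ikaros at 8 h was listed at 9 of the 11 and RelA at 1 in wild-type cells, 1 in littermate cells at 3 h and none in littermate cells at 8 h. The next in size, chr11:117820995-117841501, held 9 regions on 5 Ikaros hotspots, with Ikaros at 8 h at 9, RelA at 8 h at 4 in wild-type and 3 in littermate cells, and littermate RelA at 3 h at 5. At chr14:103436175-103459748, 7 regions lay on 4 Ikaros hotspots, with Ikaros at 8 h at 7 and each of the 3 RelA lists at 3. At chr4:144844115-144866743, 7 regions lay on 7 separate Ikaros hotspots with z scores up to 31.7. There Ikaros was kept at 7, and RelA at 6 in wild-type cells at 8 h and at 6 in littermate cells at both 3 and 8 h. The group at chr16:97666912-97684624 had 7 regions on 2 Ikaros hotspots, Ikaros at 8 h at 6 and RelA at 8 h at 1. Regions on 1 broad Ikaros hotspot share their Ikaros value and are not independent of each other.

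The edge of the selection was sharp in position but not in strength. The members with the least overlap were chrX:18737349-18737600, with 1 bp, and chr10:95700900-95701338 and chr4:124792994-124793249, with 6 bp each. Their RelA z scores were 10.0, 10.2 and 9.20, and none was in a RelA list of 8 h or of littermate cells after LPS. Just outside lay chr6:18798043-18798359, 2 bp from an Ikaros hotspot, chr8:34771461-34772049, 10 bp away, and chr19:5637244-5637524, 11 bp away, with z scores of 9.56, 14.6 and 9.24. Only the second of these met Ikaros at 8 h. In all, 26 hotspots outside the set lay within 100 bp of an Ikaros 3 h hotspot, and 29 members lay within 1 kb of an Ikaros hotspot of resting cells.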

How the data were processed

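Chromatin immunoprecipitation sequencing lists of 10 libraries were used, of 12 samples in the labels. The build is mm9 and CASAVA was among the tools, per the submitters' processing notes. The sources used here do not give the aligner, the caller or the density scale. Per the file headers, the authors deposited for each hotspot the highest and mean tag density (a signal), a z score and a p-value. Every list holds only regions past the authors' threshold, so absence from a list is not absence of binding. Only density and z score were used, to rank and describe. Densities of different lists were also set side by side, with no common scale known, so they do not measure a change in binding.

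Hotspots overlapping wild-type input by 1 bp were removed, and lists were joined by any overlap of 1 bp. Shares carry Clopper-Pearson 95% intervals and single differences Newcombe 95% intervals. Matched differences are the mean over 5 quintiles of RelA z score, or of Ikaros z score in the view from Ikaros. The interval of such a mean was combined from the distances between each quintile's difference and its Newcombe bounds. These distances were squared and summed, and the root was divided by 5. Regions named were the 10 highest by RelA z score, the 5 highest by Ikaros z score, the 5 highest by RelA z score with each of 3 outcomes (kept in all lists; Ikaros kept without RelA; neither kept; all 3 with littermate RelA at 3 h required), the 3 highest with RelA kept without Ikaros, and the 3 nearest either side of the overlap limit. Groups of regions within 10 kb were ranked by size. The members, lists and rules were chosen with earlier results of these data known. The comparison with hotspots without Ikaros at 0 or 3 h, the Ikaros strength groups and the view from Ikaros were added after the data were seen. Overlap counts were tested on simulated data against bedtools 2.31.1. Python 3.11.15 with numpy 2.4.6, pandas 2.3.3, scipy 1.17.1, statsmodels 0.14.6 and matplotlib 3.10.9 was used. Alternatives are in the closing section.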

Additional observations from a re-analysis of the deposited data

How the results depend on the processing

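None of these values has a test, so a value outside the interval first given is taken as moved. The number of members has no interval and was judged by a fixed ratio to the first count. It went from 2414 to 1688 with z scores of at least 10.9 and to 1934 with a reciprocal overlap of 50%, and neither was counted as moved. Over 14 results, 82 of 99 alternatives stayed within these bounds, 16 moved and 1 reversed. With a reciprocal overlap of 50%, littermate RelA at 0 h was 3.05%, Ikaros at 8 h 78.8%, both factors at 8 h 32.2%, the Ikaros difference between regions kept and not kept by RelA 20.0 points, and the Ikaros difference from regions without Ikaros at 0 or 3 h 37.5 points. With z scores of at least 10.9 in every list, RelA at 8 h was 44.5%, littermate RelA 25.7% at 8 h and 5.09% at 0 h, and both factors 42.8%. With the Ikaros 8 h list held to 7109 hotspots, Ikaros at 8 h was 71.3%, both factors 31.3%, and the 2 Ikaros differences 24.4 and 50.3 points. The differences from regions with no Ikaros were then 0.340 points (-2.17 to 2.96) for RelA at 8 h and 5.97 for littermate RelA at 3 h. Against regions without Ikaros at 0 or 3 h these were -3.06, which is reversed, and 3.09. The cause of each shift was not tested, beyond the shorter lists that a floor leaves. No paired analysis was possible because each group holds 1 library and the values come from no test, and no library could be left out. Counts by gene and motif were not run, for want of an mm9 annotation and sequence. Without read numbers it is not known how weak a region each library could detect.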
